A study of Gallus gallus with 2 samples.

Results

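Chromosome 2 of the chick was described here through its A and B compartments in whole hindlimb buds and whole forelimb buds. The members were all 40-kb bins that carried a value in the balanced contact matrices of both libraries, 3610 of 3740, joined into 741 of 748 bins of 200 kb. The tissue came from wild-type White Leghorn embryos at stage HH20, with pooled buds in 1 capture Hi-C (CHi-C) library from hindlimb and 1 from forelimb, and the variation from embryo to embryo was not measured. Whole buds hold several cell types, whose contacts are averaged. CHi-C ligates and sequences pieces of chromatin that touch each other, enriched for a chosen region, here a stretch of chromosome 7 around the HoxD gene cluster, and the contacts of chromosome 2 came from read pairs outside that region. The hindlimb matrix held 2836869 chromosome 2 pairs and the forelimb matrix 2513654, of which 1071419 (37.8%) in hindlimb and 967732 (38.5%) in forelimb joined sites 2 Mb or more apart.

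As background, vertebrate chromosomes are divided into stretches that contact their own kind over long distances. Stretches called A are generally rich in genes, open and transcribed, and stretches called B are generally poor in genes, compact and often placed at the nuclear periphery. Chicken cells carry large macrochromosomes, chromosome 2 among them, and many small microchromosomes that are dense in genes and tend to lie in the nuclear interior. Compartments are read from the checkerboard that remains when each contact is divided by the mean contact at the same distance (observed/expected): the rows of this matrix are correlated with each other, and the leading eigenvector of the correlations gives each bin a positive or a negative value.

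The leading eigenvector held 3.21% of the variance of the hindlimb correlation matrix and 2.93% of that of the forelimb matrix. The second eigenvector held 1.58% in hindlimb and 1.51% in forelimb, and the third 1.43% in hindlimb and 1.35% in forelimb. Over the 741 bins, the leading eigenvector correlated with the share of a bin's interchromosomal pairs that went to microchromosomes, with Pearson's r of 0.72 in hindlimb and 0.72 in forelimb, while the second reached -0.32 in hindlimb and -0.35 in forelimb. The leading one was therefore taken as the compartment eigenvector in both libraries, with its sign set so that positive bins (A) had more microchromosome contacts than negative bins (B), and scaled to a root mean square of 1. Since the sign was set that way, the direction of this relation is no result. Adjacent bins share contacts, so these correlations are descriptions over bins.

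Most of chromosome 2 had the same sign in both libraries. A bins numbered 423 (57.1%) in hindlimb and 449 (60.6%) in forelimb, with 404 bins A in both, 273 B in both and 64 of unlike sign. The eigenvectors of the libraries correlated over bins with r = 0.934 (Spearman's rho = 0.936). The second eigenvectors correlated less well between libraries, with r of 0.855 in size, and the third with 0.801. The track of all bins shows the same long positive and negative stretches in both tissues.

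**Figure D1:**
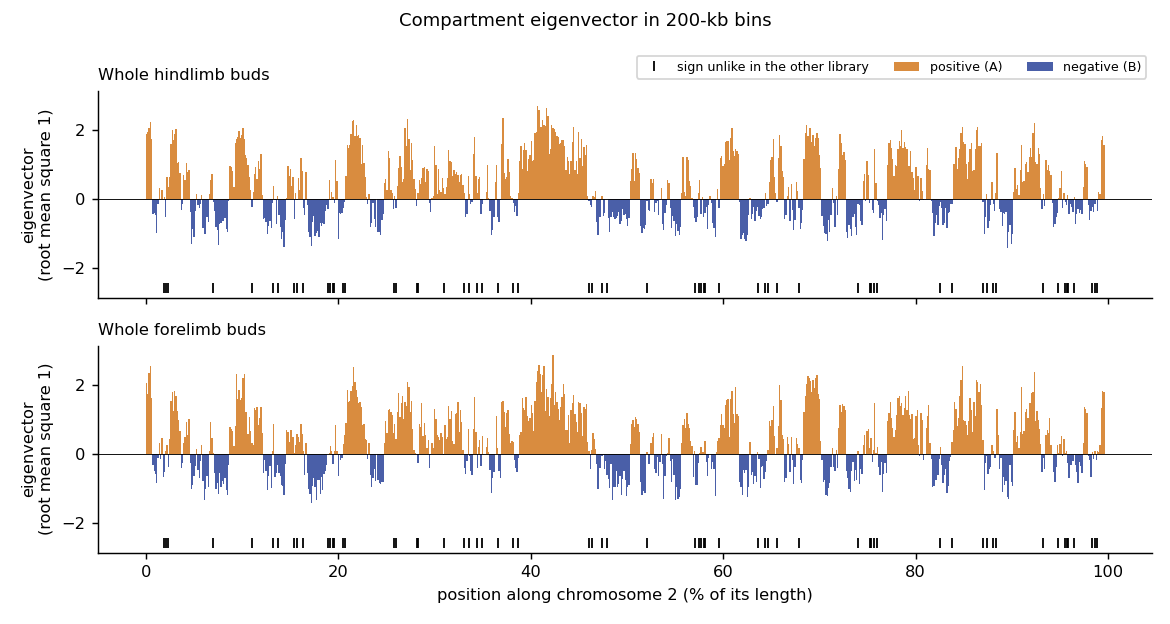
Compartment eigenvector of each 200-kb bin (y axis, root mean square 1) against position as a percentage of the length of chromosome 2 (x axis), in whole hindlimb buds above and whole forelimb buds below. Orange bars are positive bins (A), blue bars negative bins (B), and black ticks mark the 64 bins whose sign was unlike between the libraries, most of them with values close to 0.

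The 64 bins of unlike sign made up 8.64% of the 741 bins and had low values. Their median size was 0.16 in hindlimb and 0.17 in forelimb, against 0.78 in hindlimb and 0.80 in forelimb for bins of like sign. In 52 of the 64 both values were under 0.5 in size, and in 0 were both above 0.5. Of the 64, 19 were A in hindlimb and B in forelimb, and 45 were B in hindlimb and A in forelimb. This imbalance is that of the A totals, 423 in hindlimb and 449 in forelimb, which depended on the processing. On raw counts positive bins numbered 647 in hindlimb and 622 in forelimb. With a subset of the sequencing lanes they numbered 434 in hindlimb and 436 in forelimb. Forelimb kept more of them with the remaining lanes, with other distance limits and with high values limited. The direction is therefore not read as a difference between the tissues.

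The reads of each library came from 4 sequencing lanes, which repeat the sequencing and not the tissue, and they gave the size of the counting noise. When single lanes were balanced and analysed alone, a hindlimb lane and a forelimb lane differed in sign at 122 to 168 bins (median 137.5, 16 comparisons). Pairs of hindlimb lanes differed at 128 to 149 bins (median 137.5, 6 comparisons), and pairs of forelimb lanes at 123 to 148 (median 130.5, 6 comparisons). The ranges overlapped, so at the depth of single lanes unlike signs between tissues were about as common as unlike signs between lanes of 1 library. With lanes joined in pairs for more depth, 86 to 109 bins were unlike between the libraries (4 comparisons), against 79 within hindlimb and 83 within forelimb. The eigenvectors correlated with r of 0.876 to 0.888 between the libraries, against 0.908 within hindlimb and 0.892 within forelimb. At this depth every comparison between the libraries was less alike than those within a library.

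**Figure D2:**
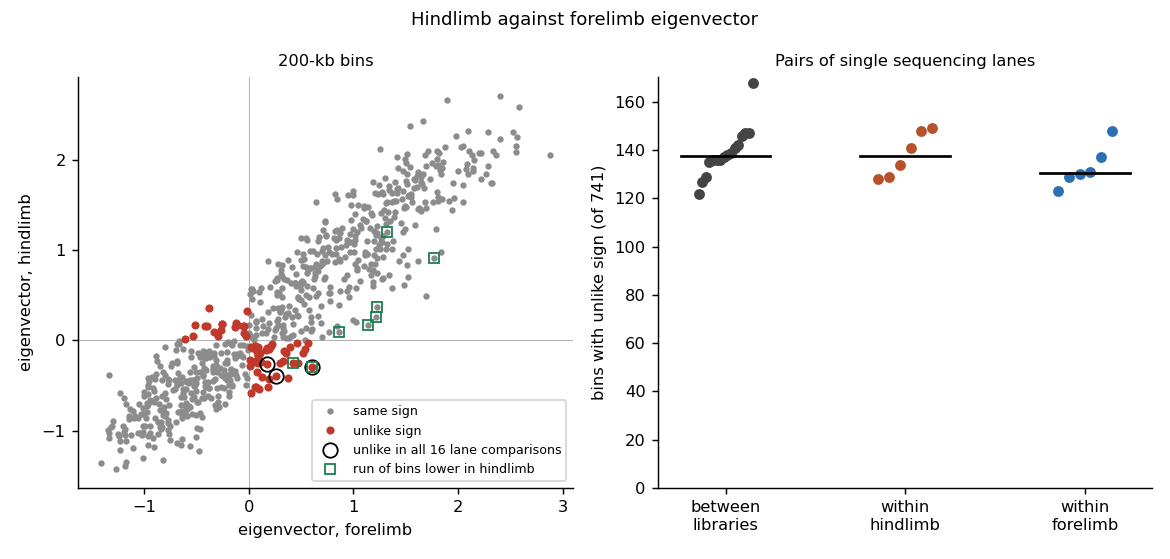
Left, eigenvector of each 200-kb bin in hindlimb (y axis) against forelimb (x axis): the 64 bins of unlike sign (red) sit close to 0, circles mark the 3 bins unlike in all 16 lane comparisons and green squares a run of 8 bins that were lower in hindlimb. Right, bins of unlike sign (of 741) for each pair of single sequencing lanes (points) with the median (line), where comparisons between libraries span 122 to 168 and those within a library 123 to 149.

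Only 3 bins (0.405% of 741) had unlike signs in all 16 comparisons of a hindlimb lane with a forelimb lane, and all 3 were B in hindlimb and A in forelimb. The bin at chr2:38400001-38600000 (galGal5) had an eigenvector value of -0.29 in hindlimb and 0.60 in forelimb, with lanes from -0.64 to -0.09 in hindlimb and from 0.34 to 0.93 in forelimb. At chr2:141600001-141800000 the value was -0.39 in hindlimb and 0.26 in forelimb, and at chr2:101400001-101600000 it was -0.26 in hindlimb and 0.17 in forelimb. Lanes at chr2:101400001-101600000 came close to 0, up to -0.042 in hindlimb and down to 0.0044 in forelimb. The microchromosome share was lower in hindlimb at chr2:38400001-38600000 (24.5% in hindlimb, 25.7% in forelimb). It was higher in hindlimb at chr2:141600001-141800000 (20.9% in hindlimb, 17.7% in forelimb) and chr2:101400001-101600000 (22.7% in hindlimb, 21.4% in forelimb). Over all bins it was higher in hindlimb by a median of 0.439 percentage points. The 7 unlike bins with the next largest differences, from 0.65 to 0.79 in size, had lane ranges that crossed 0 in at least 1 library.

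A wider count took any bin whose 4 hindlimb lanes all lay above or all lay below its 4 forelimb lanes, whatever the sign. There were 33 such bins, 4.45% of 741, of which 17 were higher in hindlimb, and 7 of the 33 were bins of unlike sign. The difference of the eigenvectors, hindlimb minus forelimb, had an SD of 0.34 over bins and ran from -1.21 to 0.95.

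The bins of like sign with the largest differences were mostly A bins. The value was lower in hindlimb at chr2:39800001-40000000 (0.49 in hindlimb, 1.70 in forelimb), chr2:38200001-38400000 (0.18 in hindlimb, 1.14 in forelimb) and chr2:38000001-38200000 (0.26 in hindlimb, 1.21 in forelimb). Bins at chr2:42800001-43000000 (0.62 in hindlimb, 1.48 in forelimb) and chr2:118400001-118600000 (0.97 in hindlimb, 1.84 in forelimb) completed these 5. It was higher in hindlimb at chr2:58200001-58400000 (1.53 in hindlimb, 0.64 in forelimb), chr2:62000001-62200000 (2.12 in hindlimb, 1.25 in forelimb), chr2:55400001-55600000 (2.37 in hindlimb, 1.54 in forelimb) and chr2:13800001-14000000 (1.62 in hindlimb, 0.82 in forelimb). The remaining one, chr2:72400001-72600000, was B in both and less negative in hindlimb (-0.38) than in forelimb (-1.33), and its hindlimb lanes ran from -1.19 to 0.52.

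Several of these bins were neighbours, so the difference was also averaged over windows of 1 Mb, a step chosen after the bins had been seen. Of 725 windows of 5 bins, 52 (7.17%) had lane ranges that did not overlap, 25 of them higher in hindlimb, and the SD of the difference over windows was 0.19. The window at chr2:38000001-39000000 stood lowest, with a mean eigenvector of -0.0025 in hindlimb (lanes -0.21 to 0.10) and 0.85 in forelimb (lanes 0.66 to 1.0), a difference of -0.85, and the window after it differed by -0.66. At the other end, chr2:62000001-63000000 had 2.0 in hindlimb and 1.51 in forelimb, a difference of 0.49.

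Extended over neighbours that were also lower in hindlimb, the run at 38 Mb covered 8 bins, chr2:37800001-39400000, or 1600 kb. Its mean eigenvector was 0.31 in hindlimb and 1.07 in forelimb, and 6 of the 8 bins were A in hindlimb against 8 of 8 in forelimb. Among its raw pairs 2 Mb or more apart, 65.9% (95% Clopper-Pearson interval 65.2 to 66.5) went to A bins in hindlimb and 68.4% (67.7 to 69.1) in forelimb. Its mean observed/expected was 1.01 with A bins and 0.983 with B bins in hindlimb, against 1.1 with A bins and 0.897 with B bins in forelimb. These values chose the run and are given as its description.

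The microchromosome share was measured on other read pairs than the eigenvector. In the run it was 26.3% (25.7 to 26.9) of 22685 interchromosomal pairs in hindlimb and 27.3% (26.7 to 27.9) of 20609 in forelimb. These intervals overlapped. Within the run the share was higher in hindlimb at chr2:38000001-38200000 (26.5% in hindlimb, 25.7% in forelimb) and chr2:39200001-39400000 (28.9% in hindlimb, 28.6% in forelimb). It was lower in hindlimb in the remaining bins of the run. Over the 725 windows the hindlimb share was higher by a median of 0.491 percentage points and lower in 170 windows, so the run lay on the less common side. Over all windows, which overlap each other, the difference in eigenvector and the difference in microchromosome share correlated with r = 0.336 (rho = 0.269), and over single bins with r = 0.121 (n = 741). Intervals here and below cover counting error only.

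Contacts were then averaged by class, with bins ranked by the eigenvector of the other library so that ranks and contacts came from separate reads. The 148 bins of highest rank contacted each other at 1.35 times the expected frequency in hindlimb and 1.36 times in forelimb. The 148 bins of lowest rank contacted each other at 1.13 times in hindlimb and 1.16 times in forelimb, and contacts between the classes were at 0.789 times in hindlimb and 0.788 times in forelimb. Compartment strength, the mean of both like classes over the mixed class, was 1.57 in hindlimb (lanes 1.54 to 1.6) and 1.6 in forelimb (lanes 1.57 to 1.61). The lane ranges overlapped, although each full-library value lay just outside the lane range of the other library.

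Both like classes stood above the mixed class at every distance beyond 2 Mb, but A and B differed in how contact changed with distance. A with A was at 1.1 for pairs 2 to 5 Mb apart and 1.44 for pairs 40 to 80 Mb apart in hindlimb, against 1.11 and 1.41 in forelimb. B with B was highest for pairs 10 to 20 Mb apart, at 1.25 in hindlimb and 1.25 in forelimb, and was 1.06 in hindlimb and 1.15 in forelimb at 40 to 80 Mb. The farthest pairs, 80 to 150 Mb apart, did not continue these changes in hindlimb. There A with A was 1.37 in hindlimb and 1.43 in forelimb, and B with B was 1.16 in hindlimb and 1.12 in forelimb. Strength was highest for pairs 20 to 40 Mb apart, at 1.67 in hindlimb and 1.66 in forelimb.

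Pairs of 200-kb bins less than 2 Mb apart were left out of the eigenvectors. Contacts at shorter distances were then read from 40-kb bins. The limit was counted between 200-kb bins, so 40-kb bins just under 2 Mb apart could enter the eigenvectors. The range of 1200 to 1960 kb therefore shared some pairs with them. Between 80 and 200 kb, A bins contacted A bins at 1.03 times the mean of that distance in hindlimb and 1.03 in forelimb, and B bins contacted B bins at 0.972 in hindlimb and 0.975 in forelimb. The order was turned at 1200 to 1960 kb, where A with A was 0.954 in hindlimb and 0.95 in forelimb, and B with B was 1.13 in hindlimb and 1.15 in forelimb. Contacts across classes at 1200 to 1960 kb, at 0.983 in hindlimb and 0.978 in forelimb, were above those of A with A. Contacts across classes were lowest at 200 to 400 kb, at 0.845 in hindlimb and 0.849 in forelimb.

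**Figure D3:**
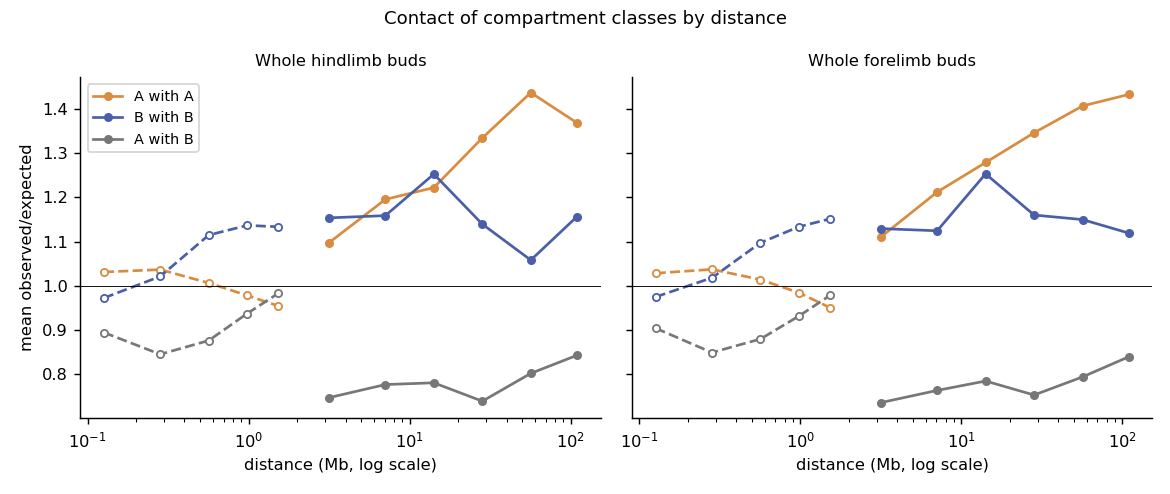
Mean observed/expected contact (y axis) against distance in Mb (x axis, log scale) for A with A (orange), B with B (blue) and A with B (grey), in hindlimb on the left and forelimb on the right. Filled points are 200-kb bins from the top and bottom 20% of ranks at 2 Mb or more. Open points are all 40-kb pairs of bins with like sign in both libraries at less than 2 Mb. The blue line crosses above the orange one between 200 and 800 kb. The orange one is higher at 5 to 10 Mb and beyond 20 Mb in both libraries, and at 10 to 20 Mb in forelimb only.

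In raw read pairs 2 Mb or more apart, 57.3% of 887389 hindlimb pairs and 57.1% of 801522 forelimb pairs joined bins of the same compartment (two-sided Fisher's exact test, p = 0.00266 after Benjamini-Hochberg adjustment over 7 tests). This call was lost with pairs 1 Mb or more apart (unadjusted p = 0.0990, Fisher's exact test) and with lanes 3 and 4 alone (unadjusted p = 0.0565, Fisher's exact test). Pairs of A with A made up 41.8% in hindlimb and 41.2% in forelimb (adjusted p = 3.54e-12, Fisher's exact test). Pairs of B with B made up 15.6% in hindlimb and 15.9% in forelimb (adjusted p = 4.80e-08, Fisher's exact test). The largest of these differences was 0.537 percentage points. A bins also took a larger part of all chromosome 2 mates in hindlimb (63.4%) than in forelimb (63.0%), and its part in these differences was not tested. The shares were not set against those that random pairing of these mates would give. They therefore do not measure a preference for the same compartment, nor a difference in it between the libraries. The A and B labels were themselves set by pairs 2 Mb or more apart in these libraries. These shares are therefore descriptions and no independent test of the labels. Such tests take read pairs as units and compare 2 libraries and not the tissues.

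A and B bins differed in other measured properties as well. Pairs to other chromosomes made up 28.3% of the pairs of A bins and 26.7% of those of B bins in hindlimb, against 27.9% for A and 26.5% for B in forelimb, with mates in the capture region left out. Microchromosomes took 26.2% of the interchromosomal pairs of A bins in hindlimb (26.1 to 26.3) and 25.8% in forelimb (25.7 to 25.9). In B bins the share was 21.9% in hindlimb (21.8 to 22.0) and 21.4% in forelimb (21.3 to 21.5). The gap of A over B, whose direction was set with the sign, was 4.31 percentage points in hindlimb and 4.42 in forelimb. The hindlimb share was higher by 0.400 points in A bins (adjusted p = 1.05e-11, Fisher's exact test) and by 0.507 points in B bins (adjusted p = 1.31e-11, Fisher's exact test).

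The number of DpnII fragments seen in a bin, which sets how many ligation sites it offers, did not follow the eigenvector. Its median per 200 kb was 432 in A bins and 433 in B bins, and r with the eigenvector over bins was 0.017 in hindlimb and 0.011 in forelimb. Raw chromosome 2 coverage did move with it, with r = 0.512 in hindlimb and 0.474 in forelimb. The median bin held 7845.5 pairs in A and 6691 in B in hindlimb, against 6929 in A and 5965 in B in forelimb.

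The preference of A bins for other chromosomes was graded by partner. For each partner, the pairs it made with A bins relative to B bins were divided by the same ratio over all interchromosomal pairs. Because the sign of A was set by the microchromosome share, microchromosomes as a group lie above 1 by construction. The other chromosomes as a group then lie below 1, and that split is no result. All 18 microchromosomes with enough pairs had a ratio above 1, from 1.04 to 1.41 in hindlimb and from 1.04 to 1.41 in forelimb, and the interval included 1 only for chromosome 25 in forelimb (0.966 to 1.11). In hindlimb the ratio was highest for chromosome 19 at 1.41 (forelimb 1.41), followed by chromosome 24 at 1.34 (forelimb 1.38), chromosome 17 at 1.32 (forelimb 1.31), chromosome 21 at 1.30 (forelimb 1.29) and chromosome 15 at 1.29 (forelimb 1.34).

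The largest chromosomes stood at the other end of the order. The ratio was 0.903 in hindlimb and 0.894 in forelimb for chromosome 1, and 0.912 in hindlimb and 0.916 in forelimb for chromosome Z. For chromosome 3 it was 0.917 in hindlimb and 0.914 in forelimb, for chromosome 4 it was 0.925 in hindlimb and 0.927 in forelimb, and for chromosome 5 it was 0.942 in hindlimb and 0.952 in forelimb. Not all chromosomes outside the microchromosomes lay below 1. Of these 11, 5 had a ratio above 1 in either library, 4 of them (chromosomes 6, 8, 9 and 10) with intervals above 1. Chromosome 10 stood at 1.16 in hindlimb and 1.16 in forelimb. That was above microchromosomes 11 (1.04 in hindlimb, 1.06 in forelimb) and 12 (1.07 in hindlimb, 1.07 in forelimb). The captured HoxD region of chromosome 7, counted apart, contacted A bins of chromosome 2 less often than B bins relative to all partners, at 0.912 (0.906 to 0.919) in hindlimb and 0.908 (0.902 to 0.915) in forelimb. The remainder of chromosome 7 was at 0.965 in hindlimb and 0.983 in forelimb. The value of the captured region was close to those of chromosomes 1, 3 and Z, which were not captured. Over 30 partners the ratios of the libraries correlated with r = 0.972.

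**Figure D4:**
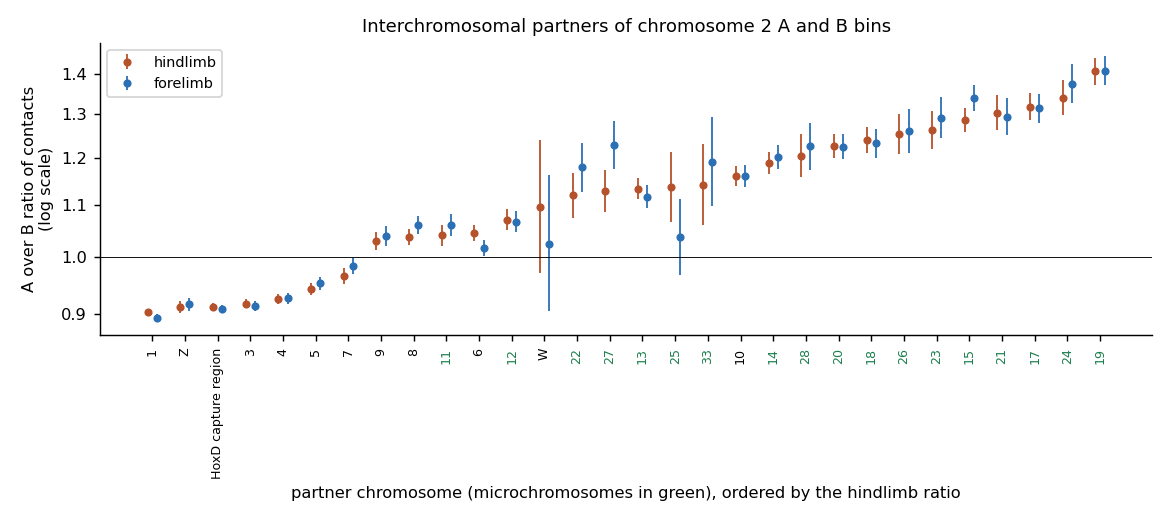
Ratio of contacts with A bins over contacts with B bins of chromosome 2 (y axis, log scale), relative to all interchromosomal pairs, for each partner chromosome and the captured HoxD region (x axis, ordered by the hindlimb ratio). Hindlimb points stand left of forelimb points and bars are 95% intervals of counting error. Microchromosomes (green labels) lie above 1 and chromosomes 1, 3, 4, 5 and Z below it in both libraries. Chromosomes 6, 8, 9 and 10 also lie above 1 in both. The sign of A was set by the microchromosome share, so the split between these groups is built in.

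Blocks were runs of adjacent bins of 1 sign. There were 151 blocks in hindlimb and 135 in forelimb, an order that turned on raw counts (89 in hindlimb, 103 in forelimb) and with lanes 3 and 4 alone (151 in hindlimb, 155 in forelimb). Of these blocks, 51 in hindlimb and 40 in forelimb were single bins. The 76 A blocks of hindlimb had a median length of 400 kb and the 68 of forelimb 600 kb, while the 75 B blocks of hindlimb had a median of 600 kb and the 67 of forelimb 600 kb. Of the 150 borders in hindlimb and 134 in forelimb, 86 were at the same position, 57.3% of the hindlimb and 64.2% of the forelimb borders. Within 1 bin of a border of the other library lay 119 (79.3%) of the hindlimb and 113 (84.3%) of the forelimb borders. Long A blocks held much of the A compartment: 11 blocks of 2 Mb or more made up 56.7% of its length in hindlimb, and 13 made up 62.5% in forelimb.

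The longest block in either library was an A block of 11000 kb. This length depended on the processing: on raw counts the longest A block was 16800 kb in hindlimb and 16600 kb in forelimb and the longest B block 1400 kb in hindlimb and 2600 kb in forelimb. With each side of the longest masked run analysed alone and the eigenvector picked by the microchromosome share, the order turned, with a longest A block of 5600 kb in hindlimb and 7600 kb in forelimb and a longest B block of 25200 kb in hindlimb and 14000 kb in forelimb. In the balanced matrices of the whole chromosome the A block lay at chr2:57800001-68800000 in hindlimb and at chr2:58000001-69000000 in forelimb, and over the hindlimb interval the mean eigenvector was 1.55 in hindlimb (lanes 1.42 to 1.57) and 1.39 in forelimb (lanes 1.24 to 1.37). The lanes did not overlap, with the hindlimb lanes higher. Its microchromosome share was 29.1% in hindlimb and 28.8% in forelimb. The next A blocks of hindlimb were chr2:44400001-49600000 (mean 0.62 in hindlimb, 0.69 in forelimb), chr2:115200001-120200000 (1.19 in hindlimb, 1.13 in forelimb), chr2:125400001-130000000 (1.4 in hindlimb, 1.38 in forelimb) and chr2:134800001-139200000 (0.98 in hindlimb, 1.07 in forelimb).

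The longest B blocks were shorter than the longest A blocks, while the median length of B blocks was not below that of A blocks in either library. The longest B blocks in hindlimb, 3400 kb each, were chr2:25000001-28400000 (mean -0.74 in hindlimb, -0.82 in forelimb), chr2:71800001-75200000 (-0.55 in hindlimb, -0.86 in forelimb) and chr2:122000001-125400000 (-0.45 in hindlimb, -0.49 in forelimb). The other 2 of the 5, each 2600 kb, were chr2:10400001-13000000 (-0.66 in hindlimb, -0.77 in forelimb) and chr2:108800001-111400000 (-0.71 in hindlimb, -0.60 in forelimb). In forelimb the block at 72 Mb was the longest of B, reaching 5200 kb at chr2:70000001-75200000, and over the hindlimb interval the lanes ran from -0.58 to -0.47 in hindlimb and from -0.98 to -0.65 in forelimb. This was the B block in which the libraries were furthest apart among the 5.

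The HoxA cluster, whose Hox genes pattern the limb along its length, lies on chromosome 2 at chr2:32634689-32739767 and was deep inside an A block in both tissues. Its 200-kb bin had an eigenvector of 2.14 in hindlimb, rank 14 of 741, and 1.87 in forelimb, rank 39. The lanes gave 2.05, 1.74, 1.92 and 2.62 in hindlimb, and 1.76, 1.82, 1.78 and 1.90 in forelimb, so the ranges overlapped. Its block ran over chr2:31000001-34400000 (3400 kb) in hindlimb and chr2:30600001-34400000 (3800 kb) in forelimb, where the additional bins at the start had lane ranges on both sides of 0 in both libraries. The HoxA bin contacted A bins at 1.01 times the expected frequency in hindlimb and 0.922 in forelimb, and B bins at 0.557 in hindlimb and 0.592 in forelimb. The microchromosome share of this bin was 34.5% in hindlimb and 32.5% in forelimb, against 26.2% in hindlimb and 25.8% in forelimb for all A bins.

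Compartment makeup varied along the chromosome. In steps of 10 Mb, the stretch from 60 to 70 Mb was 94% A in hindlimb and 98% in forelimb, while that from 70 to 80 Mb was 26% A in hindlimb and 24% in forelimb. Next to it in rank, 20 to 30 Mb was 36% A in hindlimb and 44% in forelimb. The microchromosome share followed a wider gradient. It was highest from 60 to 70 Mb, at 29% in hindlimb and 28.4% in forelimb, and lowest in the last step, from 140 Mb to the end, at 20.5% in hindlimb and 20.0% in forelimb, although 42.2% of the bins there were A in hindlimb and 51.1% in forelimb.

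At both ends of the chromosome the outermost kept bins were A. At the far end, chr2:148960001-149280000 and chr2:149320001-149560735 were masked. The last kept bin there ended at position 149000000, so the end itself was not measured. All 5 bins of the first 1 Mb were A, with a mean of 1.98 in hindlimb and 2.08 in forelimb, and all 3 kept bins of the last 1 Mb were A, with 1.71 in hindlimb and 1.66 in forelimb. Over the first 5 Mb 17 of 25 bins were A in hindlimb and 16 in forelimb, and over the last 5 Mb 9 of 23 in hindlimb and 12 in forelimb. The microchromosome share of the first 1 Mb was 33.6% in hindlimb and 32.1% in forelimb, and that of the last 1 Mb was 24.6% in hindlimb and 24.5% in forelimb.

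The ends also contacted each other. Raw pairs between the first and the last 5 Mb numbered 2597 in hindlimb and 2155 in forelimb, which was 3.03 times (2.92 to 3.15) in hindlimb and 2.83 times (2.72 to 2.96) in forelimb the mean of 54 other pairs of 5-Mb blocks lying 100 Mb or more apart. Those others ran from 0.617 to 1.98 in hindlimb and from 0.597 to 1.92 in forelimb, so 0 of 54 were higher in either library. For the outermost 1 Mb at each end the ratio was 9.63 in hindlimb (140 pairs) and 8.52 in forelimb (110 pairs), with intervals of 8.10 to 11.4 in hindlimb and 7.0 to 10.3 in forelimb. No range over other pairs of 1-Mb blocks was taken for this ratio, and much of the last 1 Mb was masked. Among 3732 pairs of 1-Mb blocks with observed/expected values, those with the highest lower value of the libraries were 0 to 1 Mb with 129 to 130 Mb (2.77 in hindlimb, 2.56 in forelimb) and 31 to 32 Mb, in the A block that holds HoxA, with 52 to 53 Mb, which holds the longest masked run (2.48 in hindlimb, 2.74 in forelimb). This last value rested on 131 pairs in hindlimb and 138 in forelimb, with 13 bins of 40 kb masked at 52 to 53 Mb. The block at 52 to 53 Mb also stood high with 30 to 31 Mb (2.26 in hindlimb, 2.12 in forelimb). So it did with 81 to 82 Mb (2.17 in hindlimb, 1.98 in forelimb) and 79 to 80 Mb (1.94 in hindlimb, 2.0 in forelimb).

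The longest run of masked bins, 13 bins of 40 kb at chr2:52320001-52840000, divided contacts over long distances. The position of the centromere was not given in the sources used here, so the run is named by its masking alone. Pairs 10 to 20 Mb apart that spanned the middle of the run were at 0.596 times the expected frequency in hindlimb and 0.590 in forelimb, against a median over all positions of 1.03 in hindlimb and 1.03 in forelimb. For pairs 5 to 10 Mb apart the value at the run was 0.70 in hindlimb and 0.718 in forelimb, and for pairs 20 to 40 Mb apart 0.760 in hindlimb and 0.761 in forelimb. In each of these ranges the lowest position of the chromosome lay within 1 Mb of the middle of the run in both libraries.

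At 2 to 5 Mb the run did not stand out, with 0.955 in hindlimb and 0.936 in forelimb. There the lowest position was at 33 Mb in hindlimb (0.647) and at 32.6 Mb in forelimb (0.670), beside the HoxA cluster. These distance ranges were chosen after the matrices had been seen. The measure fixed at the outset, which took all distances together, was largest at 131.2 Mb in hindlimb and 132.4 Mb in forelimb, where same-side pairs exceeded crossing pairs by 0.16 on the log2 scale in hindlimb and 0.16 in forelimb, and within 40 to 65 Mb, a window set around the masked run, it was highest at 53.0 Mb in hindlimb (0.13) and 52.4 Mb in forelimb (0.12).

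**Figure D5:**
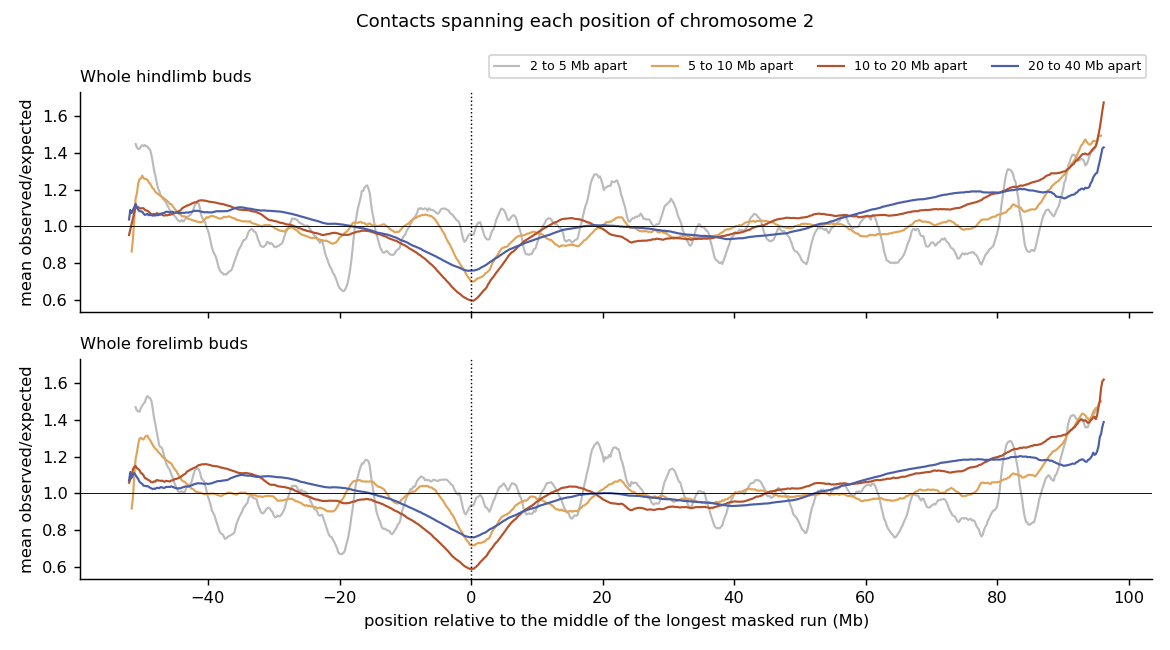
Mean observed/expected contact of pairs that span a position (y axis) against the distance of that position from the middle of the longest masked run in Mb (x axis), in hindlimb above and forelimb below, for pairs in 4 ranges of distance (coloured lines). The line for 10 to 20 Mb dips to 0.596 in hindlimb and 0.590 in forelimb at the run (dotted line), the line for 2 to 5 Mb is lowest near -20 Mb, and values rise toward the far end.

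Blocks of 5 Mb on opposite sides of the run gave the lowest values of the matrix. Of 378 pairs of such blocks, 45 to 50 Mb with 60 to 65 Mb had 0.477 in hindlimb and 0.486 in forelimb, although both lay largely within long A blocks. On the same side, 60 to 65 Mb contacted 115 to 120 Mb at 1.6 in hindlimb and 1.51 in forelimb. A bins made up 60.2% of the 261 bins before the run in hindlimb and 62.8% in forelimb, and 55.4% of the 480 bins after it in hindlimb and 59.4% in forelimb.

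The compartments were also computed on each side of the run alone, an alternative added after the values had been seen. Before the run, the leading eigenvector correlated with that of the whole chromosome with r = 0.952 in hindlimb and 0.954 in forelimb. After it, the leading eigenvector did so with 0.949 in hindlimb and 0.940 in forelimb, but its correlation with the microchromosome share was 0.631 in hindlimb and 0.577 in forelimb, and the second eigenvector had 0.725 in hindlimb and 0.723 in forelimb. Which eigenvector the microchromosome share picked on the longer side therefore differed from the whole-chromosome choice, and with the second one 40% of the bins after the run had another sign than in the whole-chromosome eigenvector in hindlimb and 40.2% in forelimb.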

How the data were processed

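Per the methods of the study, adapters were removed with cutadapt, read pairs were mapped to galGal5 and filtered with HiCUP and Bowtie2, and each mate was placed at the middle of its DpnII fragment. Pairs were kept by the authors where the mapping quality of each mate was above 30. The deposited raw matrix holds counts of read pairs per pair of 40-kb bins of chromosome 2. The deposited balanced matrix holds a signal made by the authors with cooler, in which every unmasked bin sums to 1 with the 2 nearest diagonals left out. The sums of the bins therefore no longer differ, while the number of read pairs behind each bin and library still does. The deposited list of valid pairs gives the position of the mates and their mapping quality, a score.

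Balanced values of bins unmasked in both libraries were averaged into 200-kb bins with 3 or more of 5 unmasked 40-kb bins, divided by the mean at the same distance with pairs under 2 Mb left out, and correlated by rows (numpy 2.4.6). Of the 3 leading eigenvectors, the one most correlated with the microchromosome share (chromosomes 11 to 28 and 30 to 33) was used. Lanes were read from read names in the valid-pair list, and single lanes were balanced here. Rebuilt matrices differed from the deposited counts in 204 hindlimb and 170 forelimb bin pairs, and balancing of the deposited counts by the same code came within 0.00252% of the deposited values in hindlimb and 0.00244% in forelimb. A block passed over at most 2 masked bins. Partners with under 1000 pairs were left out. Fisher's exact tests and Clopper-Pearson intervals used scipy 1.17.1. Steps were tested on simulated data. Pairs sharing PCR copies or fragments are not independent, so intervals cover counting error only.

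Named regions were the HoxA bins, the 5 longest blocks of either sign in hindlimb, up to 10 bins of unlike sign, the 5 bins of like sign with the largest difference either way, the longest masked run, both ends, and the 5 partners of highest and of lowest ratio. The run at 38 Mb and the pairs of blocks were chosen after their values were seen. The members and lists were chosen with earlier results of these data known. Alternatives were bins of 400 kb, other distance limits, raw counts, a limit on high values, subsets of lanes, all valid pairs and another set of microchromosomes. The 5-kb and 10-kb matrices of chromosome 7 were not used here. No galGal5 sequence or gene annotation was used here, so blocks were not described by their genes.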

Additional observations from a re-analysis of the deposited data

How the results depend on the processing

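Of 122 recomputed values, 91 stayed on the same side of their test or within the spread of the lanes, or within 1.5 times the count. With bins of 400 kb, 23 of 371 bins (6.20%) were unlike in sign, blocks numbered 87 in hindlimb and 85 in forelimb, and strength was 1.54 in hindlimb and 1.56 in forelimb, where the number of bins falls by construction. On raw counts the eigenvector correlated with the balanced one at 0.989 in hindlimb and 0.986 in forelimb, but 87.3% of bins were positive in hindlimb and 83.9% in forelimb, blocks numbered 89 in hindlimb and 103 in forelimb, and the arm split lay at 53 Mb in hindlimb and 52.4 Mb in forelimb. Positive bins numbered 647 of 741 in hindlimb and 622 in forelimb on raw counts, against 423 in hindlimb and 449 in forelimb on balanced values. Pairs joining the same compartment made up 85.3% in hindlimb and 85.1% in forelimb on raw counts. The division into A and B, not only of bins near 0, and the number of blocks thus depend on balancing, and the cause was not tested. Pairs 10 to 20 Mb apart put the split at 52.4 Mb in hindlimb and 52.2 Mb in forelimb. With high observed/expected values limited, forelimb strength was 1.57 and its split lay at 131.2 Mb. Strength was 1.53 in hindlimb and 1.53 in forelimb from lanes 1 and 2, and 1.56 in forelimb from the other lanes. Here the bins were ranked by the same lanes of the other library and not by its full depth. With eigenvectors computed on each side of the longest masked run alone, blocks numbered 105 in hindlimb and 105 in forelimb by the eigenvector the microchromosome share picked. Strength was then 1.24 in hindlimb and 1.25 in forelimb, and by the leading eigenvector 1.51 in hindlimb and 1.52 in forelimb. These strengths ranked the bins of both sides together. They used the observed/expected values of the whole chromosome, pairs across the run included, so they are not strengths of a side alone. The higher share of same-compartment pairs in hindlimb lost its call with pairs 1 Mb or more apart (0.114 percentage points, Fisher's exact test, unadjusted p = 0.0990) and with the other lanes (0.220 points, p = 0.0565). On balanced values the contact of both ends was 2.79 in forelimb, against 2.96 in hindlimb. No paired analysis was possible because each tissue had 1 library. With 1 library a tissue, differences between tissues and between preparations cannot be told apart.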
